A study of Astyanax mexicanus with 6 samples.

Results

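Axon guidance ligands and receptors are the secreted or membrane-bound cues and the surface receptors by which growing axons, vessels and migrating cells are steered. Members were taken by name from the deposited gene table: every semaphorin, plexin, Eph receptor, ephrin, numbered netrin and Slit, Robo, unc5 gene, dcc, and neuropilin 1 or 2, with case ignored. The rule found 86 of 25271 genes, 45 encoding ligands and 41 encoding receptors, and it used no measured value. They were compared in isolated eyes of the Mexican tetra Astyanax mexicanus, in embryos of the cave morph, whose eyes form and later degenerate, against embryos of the surface morph, which keeps its eyes. Both morphs are labelled wild type and were sampled at about 54 hours after fertilization, with 2 RNA-seq libraries and 1 whole-genome bisulfite library each. Whether 2 libraries of the same morph stand for separately collected embryos is not stated, and a p-value here covers the spread seen between libraries, possibly only technical. In whole eyes, fewer cells of a type and less RNA per cell cannot be told apart.

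As background, Slits are secreted cues that repel axons carrying Robo receptors, and netrins attract axons through Dcc and repel them where an Unc5 receptor is present. Ephrins are membrane-bound ligands that signal on contact through Eph receptor tyrosine kinases and, for the B class, also back into the cell that carries them. Class 3 semaphorins are secreted and act through neuropilins paired with plexins, whereas most other semaphorins are membrane-bound and bind plexins directly. In the vertebrate eye these families guide retinal ganglion cell axons to the optic nerve head, across the midline and into an ordered map on the tectum, and several also pattern the vessels of the eye.

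The libraries labelled cave held 132739496 and 117742250 counts, and those labelled surface 146907747 and 154476181. Levels are given as CPM, a gene's count relative to the total of its library, scaled between libraries by edgeR's TMM method, and since transcript lengths were not used, levels are compared between libraries and not between genes. The photoreceptor markers summed to 5753 and 6958 CPM in the libraries labelled cave, against 273 and 215 CPM in those labelled surface, with 18 of 19 higher in cave. Which column belongs to which morph rests on the column names alone, and an exchange of the labels was not tested. Every direction below is that of the libraries so labelled.

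Markers of other tissues that a dissected eye can hold also differed between libraries, and their part in the results below was not tested. Of 24 forebrain and hypothalamus markers, 2 fell (nkx2.4b and tph2) and 0 rose in edgeR, while 12 were lower and 0 higher at an unadjusted p under 0.05 and DESeq2 called 10 lower. The fitted difference was below 0 in 23 of the 24, with a median of -1.91, and the list summed to 254 and 130 CPM in cave, against 507 and 758 CPM in surface. Retinal ganglion cell markers, of the cells whose axons leave the eye, summed to 1356 and 1671 CPM in cave and 1731 and 2360 CPM in surface, with 1 of 19 higher (rbpms2a), a call lost when DESeq2's size factors were used in edgeR. That list was mixed, with 8 higher and 6 lower at an unadjusted p under 0.05, 10 of 19 below 0, and 5 higher and 1 lower in DESeq2. The largest part of its sums was tubb5, with 310 and 506 CPM in cave and 740 and 981 CPM in surface. The transcription factor genes atoh7 (1.56), isl2a (1.09), isl2b (2.36), pou4f1 (1.11), pou4f2 (0.84) and pou4f3 (1.09) had log2 differences above 0. So had rbpms2a (1.72) and rbpms2b (2.27). The 6 markers lower at an unadjusted p under 0.05 were elavl4 (-1.40), ebf3a (-1.21), elavl3 (-1.12), tubb5 (-1.08), gap43 (-0.94) and eomesa (-0.79). The sums therefore give no direction for the number of these cells. Lens markers summed to 501 and 615 CPM in cave, against 89.8 and 59.4 CPM in surface, with 4 of 12 higher. Pigment epithelium markers summed to 4069.7 and 5919 CPM in cave, against 1864 and 1221 CPM in surface, with 7 of 12 higher. Every marker that passed in the photoreceptor, lens and pigment epithelium lists was higher in cave, and both that passed in the forebrain list were lower. The cave libraries also stood apart from each other in surface tissues. Epidermis and cornea markers summed to 11128 CPM in cave library 1 and 1182 CPM in cave library 2, against 9169 and 10192 CPM in surface. Periocular mesenchyme and cartilage markers summed to 3807 and 426 CPM in cave, against 3876 and 3615 CPM in surface. Muscle markers summed to 782 and 92.9 CPM in cave, against 265 and 261 CPM in surface. In these 3 lists cave library 2 had by far the lowest sum. The remaining lists were less uneven: midbrain and hindbrain markers summed to 33.4 and 41.4 CPM in cave and 36.3 and 59.3 CPM in surface, and vessel and blood markers to 142 and 128 CPM in cave and 188 and 153 CPM in surface. In that last list 1 copy of mpx was at 0 in every library, and 1 copy of lyz had 2 counts in cave library 2 and 0 in the other 3 libraries.

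Guidance genes were mostly lower in the libraries labelled cave, although only 3 passed the test. Of the 86 members, 84 passed the filter on low counts. The other 2 were the copies of sema4aa, a transmembrane semaphorin gene, with 0 counts in all 4 libraries, which allows at most 0.0255 CPM (3 counts in the shallowest library). In edgeR's quasi-likelihood test with Benjamini-Hochberg adjustment over 22850 genes, 1 member rose in cave (efna1a), where 2.77% of all genes did, and 2 fell (slit1a and a robo1 copy), where 0.407% of all genes did. All 3 calls were lost without surface library 1, and likewise without surface library 2, fits in which edgeR called no gene of any kind. At an unadjusted p under 0.05, 23 members were lower in cave, or 27.4%, against 6.4% of all genes. By the same limit 2 members were higher, against 11.9% of all genes. The fitted log2 difference of cave minus surface was below 0 in 69 of 84 members, against 48.8% of all genes, and its median was -0.51 over the members and 0.02 over all genes. Both cave libraries lay below both surface libraries in 45 members, or 53.6%, where 24.2% of all genes did so, and both lay above in 7, where 28.5% of all genes did so. DESeq2, which calls more genes with these counts, gave 15 members lower in cave, where it called 3.14% of all genes, and 1 higher, where it called 6.61%. The authors' deposited table has the opposite sign, surface over cave by the names of the count columns. In it 15 members are positive at an adjusted p below 0.05, beside 3.21% of all genes, and 1 is negative, beside 6.82%.

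**Figure D1:**
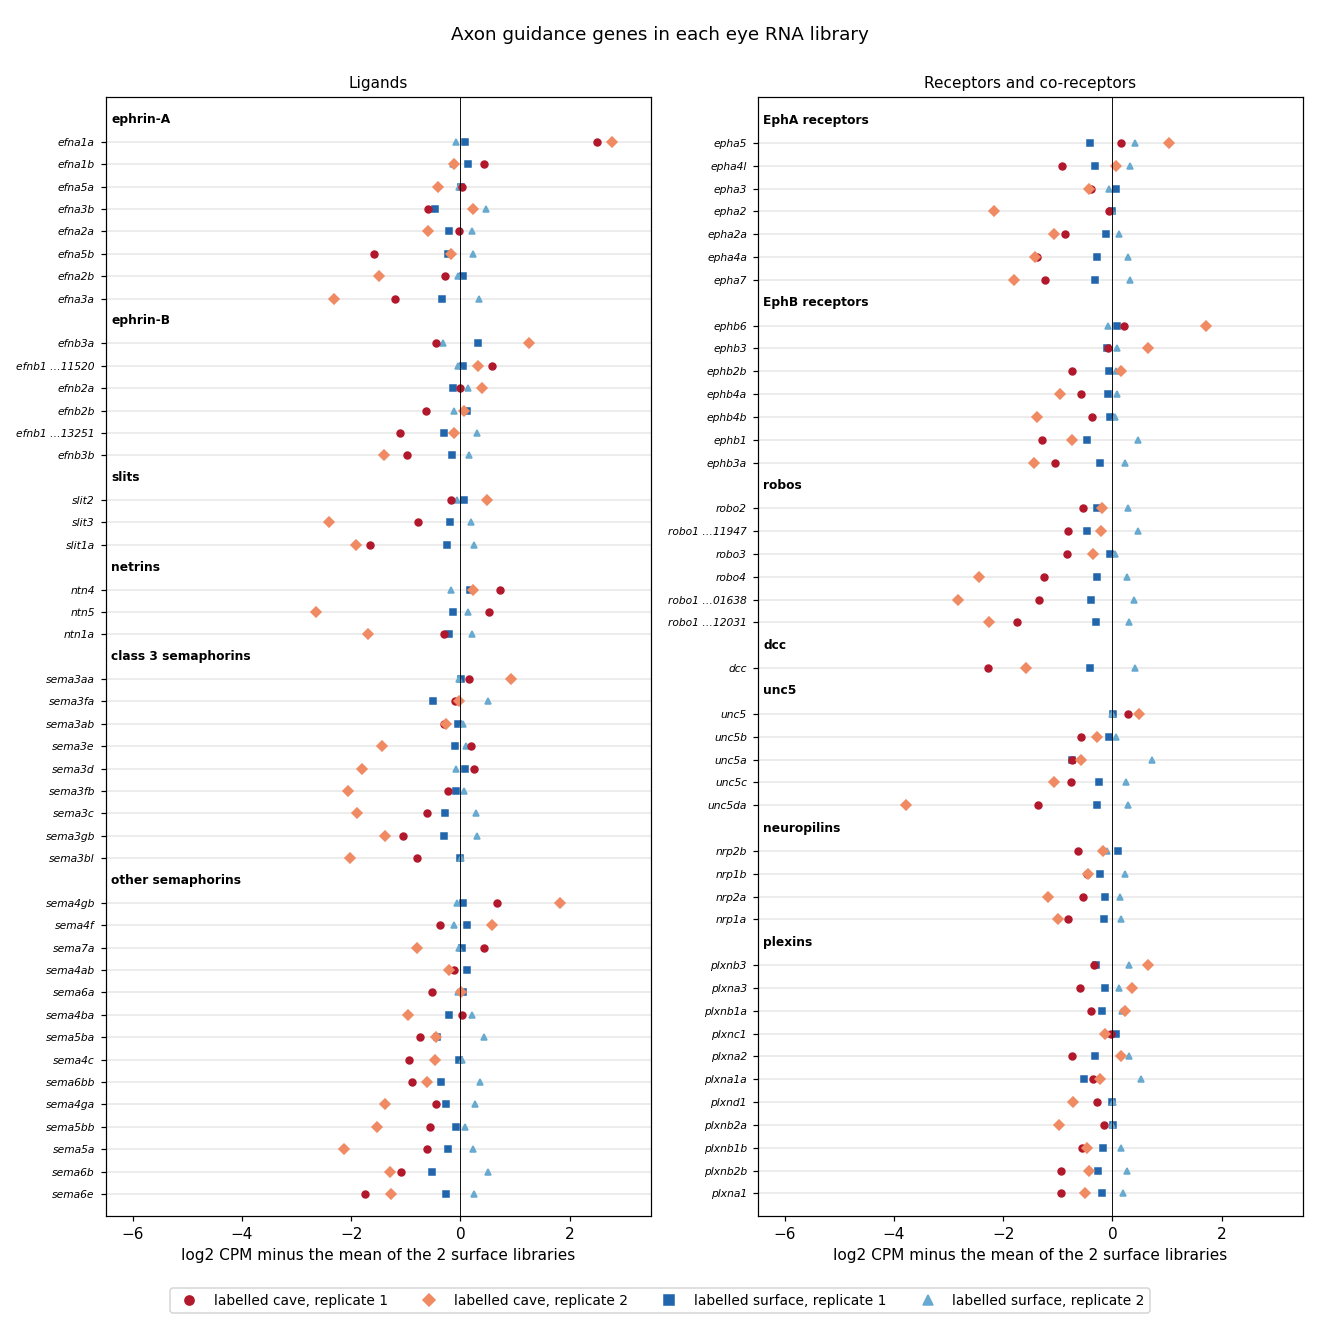
Log2 CPM minus the mean of the surface libraries (x axis) for each of the 84 members that passed the low-count filter, ligands on the left and receptors on the right, grouped by family; the symbols are the 2 cave and the 2 surface libraries and the line marks 0. Most cave symbols lie left of 0, with medians over the members of -0.56 in cave library 1 and -0.48 in cave library 2, and efna1a stands far to the right.

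The difference appeared in ligands and receptors. Receptors had a median log2 difference of -0.56, with 36 of 41 below 0, and ligands a median of -0.40, with 33 of 43 below 0; the difference between the kinds was not tested. By family the medians ran between -1.95 for dcc, a family of 1 gene here, and -0.02 for the ephrin-B ligands. The Slits (-1.39), the Robos (-1.16) and the Unc5 receptors (-0.84) lay lowest after dcc, and the ephrin-A ligands (-0.25) and netrins (-0.33) lay nearest to 0 after the ephrin-B ligands.

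Slits and Robos held both members that fell. The gene slit1a, which encodes a secreted repellent made in the zebrafish brain, had 8.16 and 6.79 CPM in cave, against 21.6 and 30.5 CPM in surface. The groups did not overlap, and slit1a fell by 1.80 on the log2 scale (SE 0.31, edgeR adjusted p = 0.0468), with a fold of 3.49 lower in cave. The call was lost without either surface library, where no gene of any kind was called. The gene slit3, another secreted repellent, had 21.0 and 6.76 CPM in cave, against 31.6 and 41.1 CPM in surface. Its cave values also lay below its surface values, but they differed from each other about as much, and the log2 difference of -1.39 did not pass (edgeR adjusted p = 0.267). The gene slit2, which in mouse and zebrafish confines retinal axons along the optic pathway, was highest in cave library 2, with 61.8 and 97.7 CPM in cave and 72.6 and 67.1 CPM in surface. The 3 Slits therefore did not share a pattern, with slit2 on both sides of the surface pair.

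Among the receptors of Slits, 3 gene models carry the name robo1. Reads can be shared between such copies, so the value of each is uncertain. The model ENSAMXG00000012031 had 11.8 and 8.21 CPM in cave, against 32.2 and 48.8 CPM in surface. This model fell by 2.02 on the log2 scale, a fold of 4.04 lower in cave (SE 0.33, edgeR adjusted p = 0.0444). It too was not called without either surface library, as no gene was. The model ENSAMXG00000001638 had 14.5 and 5.20 CPM in cave and 28.1 and 48.9 CPM in surface, a log2 difference of -1.96 that did not pass (SE 0.56, edgeR adjusted p = 0.153). The third, ENSAMXG00000011947, lies on the same scaffold as ENSAMXG00000012031, with no gene in the 37.1 kb between them. It had 10.4 and 15.8 CPM in cave and 13.3 and 25.5 CPM in surface, so that the groups overlapped.

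The other Robo genes lay lower in cave too, by unequal amounts. The gene robo4, a Robo of vascular endothelium in mammals, had 13.8 and 6.04 CPM in cave, against 27.1 and 39.7 CPM in surface, a log2 difference of -1.75 (SE 0.46, edgeR adjusted p = 0.132). Both cave values lay below both surface values. Of the endothelial markers, kdrl (0.48), cdh5 (0.55), tek (0.26) and pecam1 (0.40) had log2 differences above 0. Those of fli1a (-0.72), tie1 (-0.16) and etv2 (-0.0017) lay below 0, and none of the markers passed. The part of vessels in the robo4 values was not tested. Its neighbour robo3, which in mouse lets commissural axons cross the midline, begins 8.04 kb away on the other strand, with no gene between. It had 51.5 and 72.1 CPM in cave and 89.1 and 95.6 CPM in surface, a log2 difference of -0.58 (edgeR adjusted p = 0.275). The gene robo2, whose zebrafish mutant astray misroutes retinal axons, had 27.5 and 35.3 CPM in cave and 32.9 and 49.1 CPM in surface, which overlap. It is next to robo1 ENSAMXG00000001638 at a distance of 20.4 kb. All 6 Robo genes had a fitted difference below 0, between -2.02 and -0.39. At an unadjusted p under 0.05, 3 of the 6 were lower, where 6.4% of all genes were. DESeq2 called 3 of the Robo genes lower, where it called 3.14% of all genes. These were robo4 and the robo1 models ENSAMXG00000012031 and ENSAMXG00000001638.

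**Figure D2:**
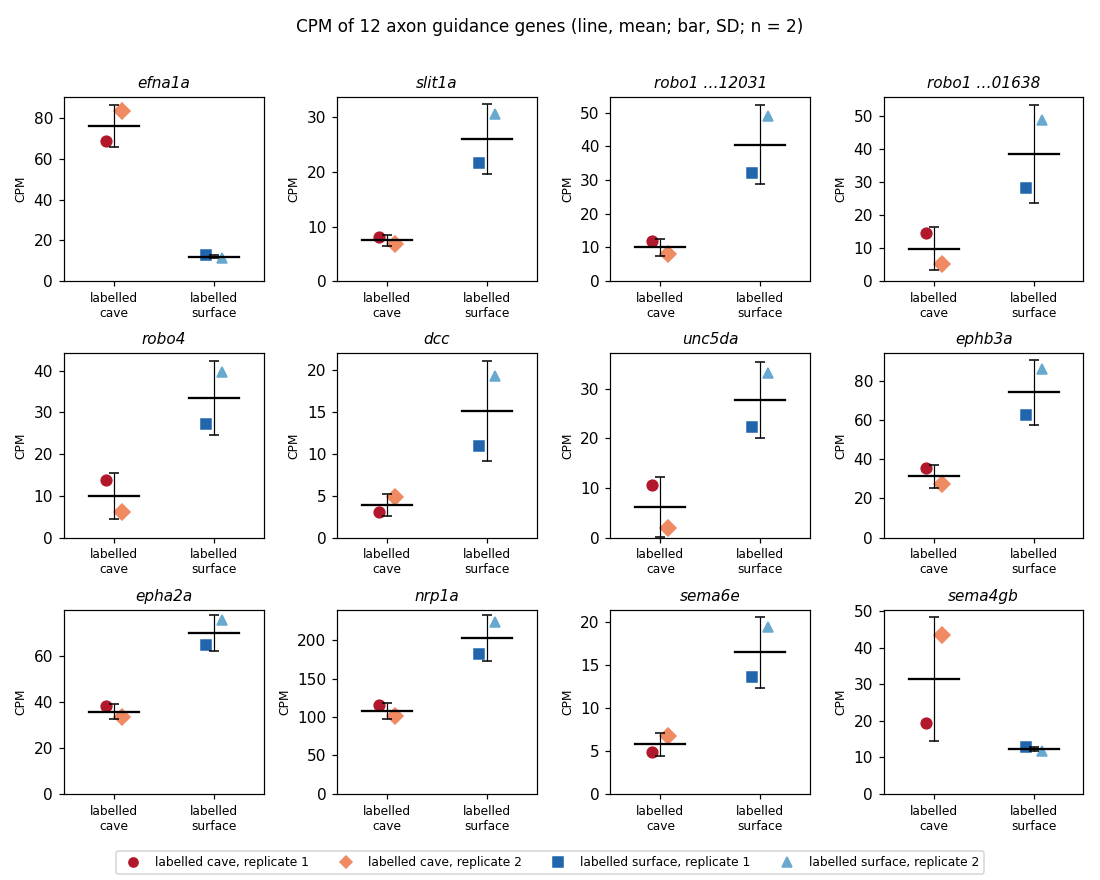
CPM (y axis, linear and starting at 0) of 12 guidance genes in each RNA library, cave on the left and surface on the right of each panel; symbols are libraries, the line is the mean and the bar the SD (n = 2). Both cave values of efna1a (68.6 and 83.3 CPM) stand above its surface values, and both cave values of slit1a (8.16 and 6.79 CPM) stand below its surface values.

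In the netrin system 0 of 9 genes passed in edgeR. Of these 9, dcc and unc5da were lower at an unadjusted p under 0.05, where 6.4% of all genes were. DESeq2 called both lower, where it called 3.14% of all genes. The attractant receptor gene dcc had 2.996 and 4.81 CPM in cave, against 10.9 and 19.3 CPM in surface. Its groups did not overlap, and its log2 difference of -1.95 missed the threshold (SE 0.45, edgeR adjusted p = 0.0979). The repulsive receptor gene unc5da had 10.5 and 1.98 CPM in cave, against 22.4 and 33.2 CPM in surface, the lowest fitted difference of any member at -2.15. Its cave libraries differed widely from each other, and it did not pass (SE 0.78, edgeR adjusted p = 0.234). The gene unc5b, an Unc5 of vessels and retina in zebrafish and mouse, had 23.4 and 28.8 CPM in cave and 33.6 and 36.6 CPM in surface (log2 difference -0.43, edgeR adjusted p = 0.391). Of the 5 Unc5 genes, unc5 alone had both cave values above the surface values, at 26.7 and 30.7 CPM in cave and 22.1 and 21.7 CPM in surface. Its difference of 0.39 did not pass (edgeR adjusted p = 0.426). The gene unc5c overlaps bmpr1ba on the other strand, and unc5a, slit2 and plxnc1 each overlap an unnamed gene model on their own strand. Whether the counting used strand is not given in the sources used here, so reads of unc5c and bmpr1ba could be mixed. In the same-strand overlaps strand cannot separate the reads. The unnamed models at unc5a and slit2 had between 0 and 3 counts in each library. The one at plxnc1 had 166 and 127 counts in cave and 211 and 253 in surface.

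Netrin 1, which draws retinal axons into the optic nerve head in mouse, was measured as ntn1a. It had 22.3 and 8.53 CPM in cave and 23.7 and 31.8 CPM in surface, so that only cave library 2 lay far below the rest (log2 difference -0.85, edgeR adjusted p = 0.429). The gene ntn4, a netrin that mammals place in basement membranes, had 3.09 and 2.17 CPM in cave and 2.096 and 1.63 CPM in surface, the reverse order of ntn1a, without passing (edgeR adjusted p = 0.646). The gene ntn5 had 1.25 and 0.125 CPM in cave and 0.782 and 0.943 CPM in surface, with 1 cave library on either side.

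The ephrin-A ligand gene efna1a was the member that rose. Ephrin-A1 is a lipid-anchored ligand of EphA receptors. Its gene had 68.6 and 83.3 CPM in cave, against 12.8 and 11.5 CPM in surface. The cave values stood above the surface values by many times the difference within either pair, and the gene rose 6.27-fold (log2 difference 2.65, SE 0.23, edgeR adjusted p = 0.00861). Without either surface library efna1a was not called, as no gene was. In the authors' deposited table its log2 value is -2.50 with an adjusted p of 3.97e-14, whose sign runs surface over cave. The other copy, efna1b, had 27.2 and 18.7 CPM in cave and 22.3 and 18.4 CPM in surface, which overlap. The other 6 ephrin-A genes, of a class whose gradients set the retinotopic map on the tectum, all had fitted differences below 0, and none passed in edgeR. Among them efna3a had 1.45 and 0.658 CPM in cave and 2.63 and 4.26 CPM in surface. Its log2 difference of -1.71 did not pass in edgeR (edgeR adjusted p = 0.226), while DESeq2 called it lower (DESeq2 adjusted p = 0.0489). The map ligand gene efna5a had 26.0 and 19.3 CPM in cave and 25.8 and 25.1 CPM in surface, which overlap, and efna2b had 24.9 and 10.8 CPM in cave against 31.4 and 29.2 CPM in surface.

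EphA receptors bind the product of efna1a. Of 7 EphA genes 0 passed the test in edgeR, while 3 were lower at an unadjusted p under 0.05, where 6.4% of all genes were. DESeq2 called 3 lower, where it called 3.14% of all genes. In 6 the fitted difference was below 0, and the family median was -0.76. The gene epha2a had 38.0 and 33.3 CPM in cave, against 64.4 and 75.4 CPM in surface. Its cave values lay below both surface values with little spread, and its log2 difference of -0.97 did not pass (SE 0.21, edgeR adjusted p = 0.0817). The gene epha7, an EphA of the midbrain in mouse, had 3.52 and 2.38 CPM in cave and 6.65 and 10.3 CPM in surface (log2 difference -1.53, edgeR adjusted p = 0.151). The gene epha4a had 0.988 and 0.961 CPM in cave and 2.12 and 3.19 CPM in surface (log2 difference -1.44, edgeR adjusted p = 0.217). In both genes the cave values lay below the surface values, without passing. The gene epha3, which marks temporal retinal axons in chick, had 38.2 and 37.0 CPM in cave and 52.4 and 47.8 CPM in surface, a log2 difference of -0.41. The exception was epha5, with 9.65 and 17.6 CPM in cave and 6.50 and 11.5 CPM in surface, which overlap.

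Of 7 EphB receptor genes 5 had a fitted difference below 0, with a median of -0.75. In edgeR 0 passed, while 2 were lower at an unadjusted p under 0.05, where 6.4% of all genes were. DESeq2 called 1 lower, where it called 3.14% of all genes. The gene ephb3a had 35.4 and 27.1 CPM in cave, against 62.3 and 85.8 CPM in surface. The groups did not overlap, and the log2 difference was -1.24 (SE 0.26, edgeR adjusted p = 0.0792). The genes ephb4a and ephb4b encode the venous receptor for ephrin-B2. The gene ephb4a had 13.0 and 10.02 CPM in cave and 18.4 and 20.5 CPM in surface, a log2 difference of -0.75, and ephb4b had 27.8 and 13.8 CPM in cave and 35.0 and 37.2 CPM in surface, a difference of -0.80. Neither passed (edgeR adjusted p = 0.243 for ephb4a and 0.334 for ephb4b). The groups overlapped in ephb2b, an EphB of ventral retina, with 9.55 and 17.9 CPM in cave and 15.3 and 16.8 CPM in surface. The gene ephb6, whose product lacks kinase activity in mammals, had 11.6 and 32.7 CPM in cave and 10.5 and 9.39 CPM in surface. Both of its cave values exceeded the surface values, by unequal amounts, and the difference of 1.15 did not pass (SE 0.51, edgeR adjusted p = 0.318).

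Ephrin-B ligands split evenly, with 3 of 6 fitted differences below 0. The gene efnb3b had 6.01 and 4.48 CPM in cave and 10.6 and 13.2 CPM in surface, the lowest of the family at -1.18. It passed in DESeq2 but not in edgeR (SE 0.34, edgeR adjusted p = 0.155, DESeq2 adjusted p = 0.0139). Its copy efnb3a had 7.46 and 24.3 CPM in cave and 12.6 and 8.14 CPM in surface, with 1 cave library below and the other above both surface libraries. The efnb1 model ENSAMXG00000011520 had 46.1 and 38.7 CPM in cave and 31.7 and 29.9 CPM in surface. Here the cave values were higher without overlap, at a difference of 0.46 that did not pass (SE 0.21, edgeR adjusted p = 0.33). The genes efnb2a and efnb2b, ligands of the arterial and dorsal retinal class, had overlapping groups.

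All 4 neuropilins, the semaphorin-binding receptor subunits, lay below the surface pair in both cave libraries, where 24.2% of all genes did. The gene nrp1a had 115 and 101 CPM in cave, against 181 and 224 CPM in surface. This was a log2 difference of -0.91 (SE 0.21, edgeR adjusted p = 0.0966), which did not pass. The gene nrp2b had 113 and 155 CPM in cave and 189 and 163 CPM in surface (log2 difference -0.39, edgeR adjusted p = 0.439), and nrp2a had 25.2 and 16.3 CPM in cave and 33.6 and 40.2 CPM in surface (log2 difference -0.83, edgeR adjusted p = 0.225). The gene nrp1b had 10.4 and 10.5 CPM in cave and 12.3 and 16.8 CPM in surface. In edgeR 0 of the 4 passed, while 2 were lower at an unadjusted p under 0.05, where 6.4% of all genes were. DESeq2 called 1 lower (nrp1a), where it called 3.14% of all genes.

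Class 3 semaphorins, the secreted ligands of neuropilins, were below 0 in 8 of 9 genes with a median of -0.45. The exception was sema3aa, a copy of the repellent Sema3A, with 67.7 and 116 CPM in cave and 61.6 and 60.0 CPM in surface. Its cave values stood above the surface values, and the difference of 0.60 did not pass (SE 0.29, edgeR adjusted p = 0.359). The gene sema3bl had 8.04 and 3.46 CPM in cave and 14.0 and 14.1 CPM in surface, the lowest of the class at -1.29 (SE 0.47, edgeR adjusted p = 0.235). The gene sema3gb had 8.25 and 6.58 CPM in cave and 13.9 and 21.2 CPM in surface. Its log2 difference of -1.24 passed in DESeq2 but not in edgeR (SE 0.34, edgeR adjusted p = 0.141, DESeq2 adjusted p = 0.0157). In both, the cave values lay below the surface values. The neighbours sema3e, sema3ab and sema3d, which have no other gene between them, did not share a pattern. The gene sema3e, whose product binds Plexin D1 directly and repels vessels in mouse and zebrafish, had 24.96 and 8.02 CPM in cave and 20.4 and 23.2 CPM in surface. The gene sema3d, a repellent of retinal axons in zebrafish, had 40.7 and 9.91 CPM in cave and 36.5 and 32.5 CPM in surface. In sema3d and sema3e cave library 1 lay above the surface pair and cave library 2 far below it. The gene sema3ab had 8.46 and 8.69 CPM in cave and 10.1 and 10.8 CPM in surface.

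Membrane-bound semaphorins were below 0 in 12 of the 14 genes tested, with a median of -0.67. The gene sema6e, of the transmembrane class 6, had 4.81 and 6.69 CPM in cave, against 13.5 and 19.4 CPM in surface. The groups did not overlap, and the log2 difference of -1.52 did not pass in edgeR (SE 0.35, edgeR adjusted p = 0.102). DESeq2 called sema6e lower (DESeq2 adjusted p = 0.00382). The transmembrane gene sema4gb stood highest of the class, with 19.4 and 43.5 CPM in cave and 12.7 and 11.8 CPM in surface. Both cave values exceeded the surface values, and the difference of 1.36 did not pass (SE 0.42, edgeR adjusted p = 0.178). The gene sema6a, a ligand of A-class plexins, had 72.3 and 105 CPM in cave and 108 and 101 CPM in surface, which overlap. The gene sema7a, which encodes a lipid-anchored semaphorin, had 16.2 and 6.91 CPM in cave and 12.2 and 11.7 CPM in surface.

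Plexins, the signalling receptors of semaphorins, had small differences, 10 of 11 below 0 with a median of -0.38. The lowest was plxna1, with 20.3 and 27.6 CPM in cave and 33.9 and 44.8 CPM in surface, at -0.71 (SE 0.27, edgeR adjusted p = 0.254). The gene plxnb1b had 60.2 and 64.0 CPM in cave and 79.1 and 99.6 CPM in surface, at -0.53 (edgeR adjusted p = 0.266). The gene plxnd1, the vascular receptor of Sema3E, had 34.8 and 25.4 CPM in cave and 41.8 and 42.5 CPM in surface, at -0.49 (edgeR adjusted p = 0.358). In all 3 genes both cave values lay below both surface values. The fitted differences of the plexins ran between -0.71 and 0.21.

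Which cave library was used changed which members were called. With cave library 2 alone against the surface pair, edgeR called 36 members lower and 7 higher, where it called 18.1% and 12.9% of all genes. With cave library 1 alone it called 28 members lower and 1 higher, where it called 8.37% and 11.2% of all genes. In these fits the lone cave library is assumed to vary like the surface pair. Both fits use the same surface libraries, as does DESeq2, so an overlap of their lists is not independent support. How far such lists overlap over all genes was not computed. The lists shared 18 lower members, or 50% of the longer and 64.3% of the shorter. The 18 were dcc, unc5da, slit1a, slit3, robo4, robo1 ENSAMXG00000001638 and ENSAMXG00000012031, nrp1a, epha2a, epha4a, epha7, ephb3a, efna3a, efnb3b, sema3bl, sema3gb, sema6b and sema6e, which were listed after their values were seen. All 15 members that DESeq2 called lower were in both lists, and efna1a was the shared higher member. With either surface library alone edgeR called 0 genes of any kind, so efna1a, slit1a and robo1 ENSAMXG00000012031 were not called. The log2 difference of efna1a was 2.64 without surface library 1 and 2.57 without surface library 2. DESeq2 was not run on those subsets.

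**Figure D3:**
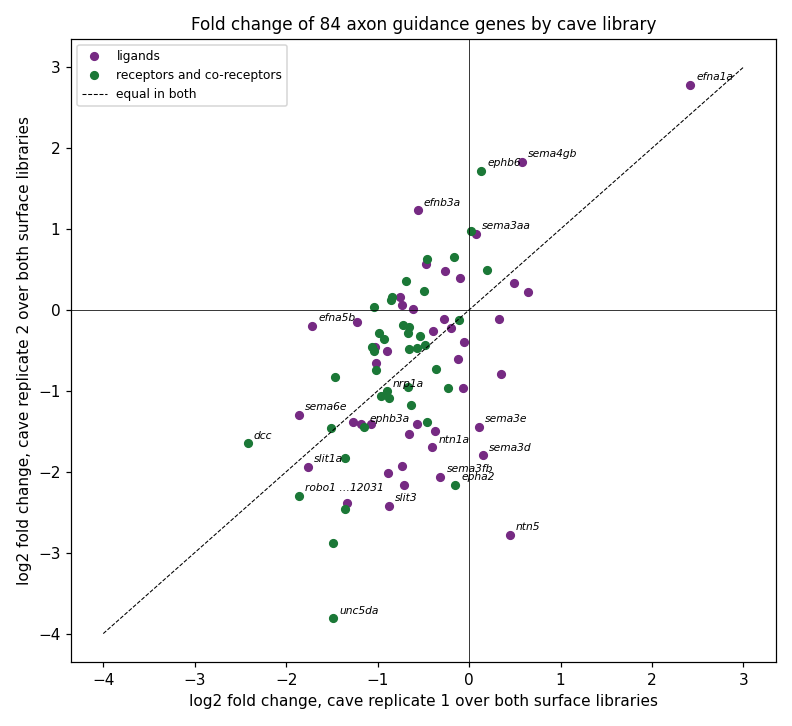
Fitted log2 difference of cave library 2 (y axis) and of cave library 1 (x axis) over both surface libraries, for the 84 members that passed the low-count filter; each point is 1 member, coloured as ligand or receptor, and the dashed line marks equal values. Most points lie in the lower left, below 0 in both libraries, with sema3d, sema3e and ntn5 below the dashed line and efnb3a and ephb6 above it.

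The cave libraries differed widely from each other in some members. Cave library 2 lay at least 2-fold below cave library 1 in 17 members, or 20.2%, where 21.6% of all genes did, and at least 2-fold above it in 4, where 4.53% did. These shares are close to those of all genes. In 5 members cave library 1 lay above and cave library 2 below the surface pair, where 13.1% of all genes did, and in 7 the order was reversed, where 6.93% did. The receptor gene EPHA2, another EphA2 gene beside epha2a, had 44.1 and 10.3 CPM in cave and 46.2 and 46.3 CPM in surface, so that cave library 2 alone set its log2 difference of -0.76. Of the 17 members lower in cave library 2, sema3d, sema3e, EPHA2 and ntn1a are examples. Their low values ran in the same library as the low sums of epidermis, periocular mesenchyme and muscle markers. The part of those tissues was not tested. In efnb3a (3.26-fold), ephb6 (2.82-fold), efna5b (2.65-fold) and sema4gb (2.24-fold) cave library 2 was instead the higher of the cave pair. The surface libraries differed as well, with surface library 2 above surface library 1 in 62 members, or 73.8%, where 50.3% of all genes did. The forebrain markers were also higher in surface library 2, and their part in this was not tested.

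Many of these genes stand as a pair of copies left by the whole-genome duplication of teleost fish. In 15 such pairs with both copies in the table, the share of the pair's counts taken by the a copy separated the morphs without overlap in 8, and the fitted differences of the copies had the same sign in 11. Over 1597 pairs of tested genes whose names differ only in a final a or b, the shares did not overlap in 59.4% and the signs were the same in 61.1%. The non-overlap of the member pairs is near that share. The copy efna1a took 71.6% and 81.6% of the counts of its pair in cave, against 36.4% and 38.4% in surface. The morphs thus differed in which copy was the more abundant by counts, which are not corrected for transcript length. The copy sema4ga took 16.8% and 4.47% of its pair in cave, against 25.9% and 35.3% in surface. The copy efna3a took 42.4% and 15.8% in cave, against 54.8% and 50.8% in surface, and efnb3a 55.4% and 84.5% in cave, against 54.2% and 38.2% in surface. In the last pair the cave values lay above the surface values, in cave library 1 by little. The copy sema3aa took 88.9% and 93.0% in cave, against 85.9% and 84.8% in surface, and nrp1a 91.7% and 90.5% in cave, against 93.6% and 93.0% in surface. With 2 libraries per morph an exact permutation test of a share cannot give a two-sided p below 0.333, so no p is given. The counts of either copy of a pair can include reads of the other.

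**Figure D4:**
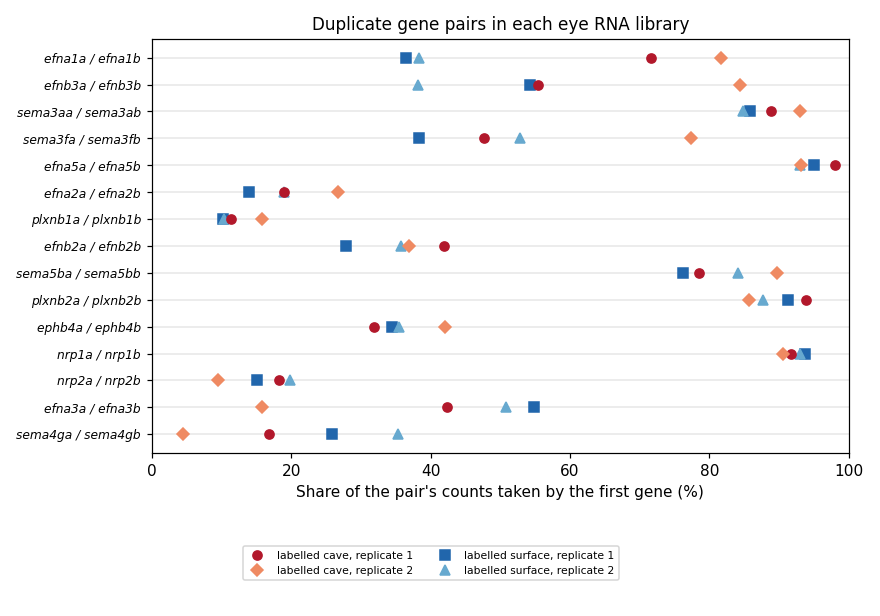
Percent of each pair's counts taken by the first gene (x axis) for 15 pairs of copies; symbols are the 2 cave and the 2 surface RNA libraries. The cave values of efna1a (71.6% and 81.6%) lie far right of its surface values (36.4% and 38.4%), and in 7 of the 15 pairs the groups overlap.

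Genes downstream of and beside these receptors were taken from a list of co-receptors, adhesion molecules and intracellular parts of axon guidance. Of 107 names 79 were found, and 81 genes were tested. In edgeR's test 4 rose and 0 fell, where 2.77% of all genes rose and 0.407% fell. At an unadjusted p under 0.05, 14 were lower and 8 higher, where 6.4% and 11.9% of all genes were. DESeq2 called 6 lower and 5 higher, where it called 3.14% and 6.61% of all genes. The gene mical3b, of the Mical oxidases that act on actin below plexins, had 36.6 and 54.5 CPM in cave, against 4.86 and 4.41 CPM in surface (log2 difference 3.30, edgeR adjusted p = 0.00944). The gene cntn1b, an axonal adhesion molecule, had 46.8 and 101 CPM in cave, against 12.7 and 9.71 CPM in surface (log2 difference 2.73, edgeR adjusted p = 0.0378). The gene crmp1, of the collapsin response mediators of Sema3A signalling, had 114 and 227 CPM in cave, against 36.4 and 29.5 CPM in surface (log2 difference 2.38, edgeR adjusted p = 0.0386). The gene chn2, a GTPase-activating protein of the chimaerin family, had 53.8 and 69.4 CPM in cave, against 18.8 and 14.2 CPM in surface (log2 difference 1.90, edgeR adjusted p = 0.0276). In these 4 genes every cave value exceeded every surface value. The 4 with the smallest p among those below 0 did not pass in edgeR, while DESeq2 called each lower (DESeq2 adjusted p between 0.00115 and 0.0173). The netrin and RGM receptor gene neo1a, a relative of dcc, had 22.6 and 15.2 CPM in cave and 44.7 and 63.5 CPM in surface (log2 difference -1.52, edgeR adjusted p = 0.0728), and flrt3, a partner of Unc5 and Robo receptors in mouse, had 15.4 and 12.8 CPM in cave and 29.9 and 37.4 CPM in surface (log2 difference -1.25, edgeR adjusted p = 0.0747). The transcription factor gene zic2a, whose mouse counterpart makes retinal axons turn back at the chiasm, had 32.3 and 26.4 CPM in cave and 51.8 and 69.8 CPM in surface (log2 difference -1.05, edgeR adjusted p = 0.104). The Robo effector gene srgap2 had 6.11 and 8.53 CPM in cave and 15.4 and 21.8 CPM in surface (log2 difference -1.34, edgeR adjusted p = 0.121). The list's median was -0.29, with 59 of 81 below 0, against 0.02 and 48.8% over all genes. Set against the mean of the surface libraries, the list's median log2 CPM difference was -0.30 in cave library 1 and -0.38 in cave library 2.

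DNA methylation was compared in the upstream region and the gene body of each member, from counts of methylated and unmethylated calls. With 1 library per morph, a difference between the libraries is not one between the morphs, and no replicate check was possible. An upstream region was called where Fisher's exact test gave an adjusted p below 0.05 and the difference was at least 10 percentage points, with at least 20 calls in each library. Of 86 members, 11 were more methylated in cave, or 12.8%, where 12.1% of all regions were, and 7 less methylated, or 8.14%, where 8.67% were. These shares are near those of all regions. A member's upstream region held a median of 1654 calls in cave and 1473.5 in surface, and the intervals below are exact 95% intervals that cover counting error only. Every call count of the cave library was even, unlike those of the surface library, so cave calls may be counted more than once. The cave intervals, and the p-values of Fisher's test, would then be too small. With even calls halved, 10 of 85 members were more methylated in cave and 7 less, where 11.6% and 8.39% of all regions were.

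The called regions lay across families. Upstream of epha5, methylation was 47.9% in cave (45.8 to 50%) and 25.9% in surface (24.2 to 27.6%). Upstream of plxnc1, the Sema7A receptor gene, it was 86.4% in cave (85.3 to 87.4%) and 67.5% in surface (65.2 to 69.7%). Upstream of nrp2a it was 70.6% in cave (69.1 to 72.1%) and 52.6% in surface (50.8 to 54.5%). All 3 were higher in cave, by 18.0 to 22.1 percentage points. The more methylated group also held sema4c, efna2a, sema3e, sema3fa, ntn5, unc5 and the robo1 model ENSAMXG00000001638. Its last member was a sema4aa copy with 0 RNA counts, at 100% of 32 calls in cave and 82.7% of 81 calls in surface. That copy was not tested once even calls were halved, since its cave calls then fell under 20.

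Among regions less methylated in cave, sema6a stood first, at 21.3% of 366 calls in cave (17.2 to 25.9%) and 60.0% of 60 calls in surface (46.5 to 72.4%). The surface value rests on few calls, and the RNA of sema6a overlapped between the morphs. Upstream of plxna3 methylation was 50% in cave (46.8 to 53.2%) and 68.1% in surface (65.0 to 71.1%), and upstream of sema6bb 70.5% in cave (63.8 to 76.6%) and 86.6% in surface (81.0 to 91.1%). Upstream of unc5a it was 29.5% in cave (28.0 to 31.0%) and 43.9% in surface (41.7 to 46.0%). Upstream of plxna1a it was 87.0% of 200 calls in cave and 100% of 54 calls in surface. Upstream of robo4 it was 48.3% in cave (46.2 to 50.4%) and 60.0% in surface (58.0 to 62.1%), and upstream of epha4a 27.5% in cave (25.6 to 29.4%) and 38.2% in surface (36.0 to 40.4%). Of the 7 in this group, robo4, epha4a and sema6bb had both cave RNA values below the surface pair. Of the 10 more methylated members with RNA tested, robo1 ENSAMXG00000001638, nrp2a and sema4c did. Over all tested members 53.6% did so, and over all genes 24.2%.

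**Figure D5:**
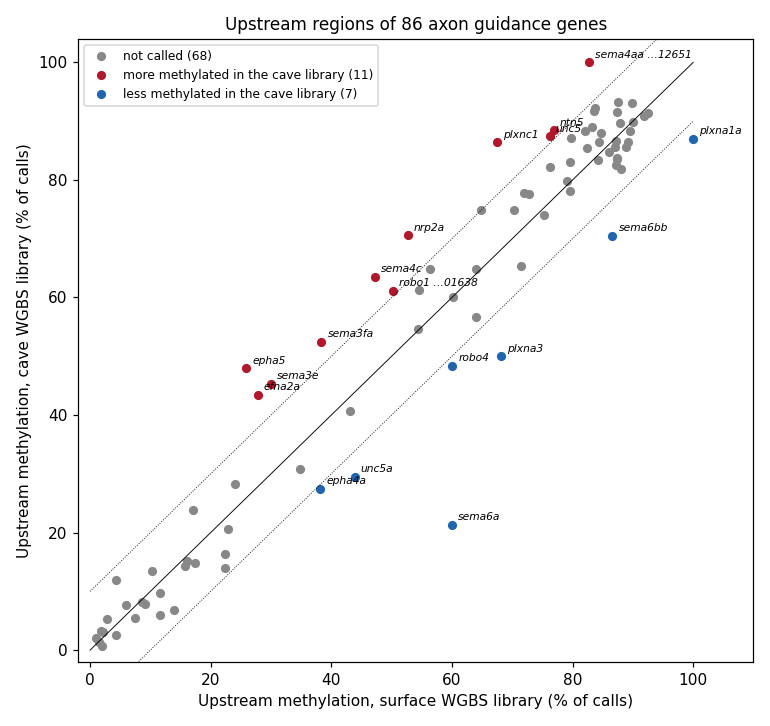
Percent of methylated calls upstream of each of 86 members in the cave library (y axis) against the surface library (x axis); colours mark the 11 called more and the 7 called less methylated in cave, the solid line equal values and the dotted lines a difference of 10 points. Most points lie between the dotted lines, and sema6a lies farthest outside them, at 21.3% in cave and 60.0% in surface.

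The members whose RNA passed the test were not called for methylation. Upstream of efna1a it was 60.1% in cave and 60.2% in surface, upstream of robo1 ENSAMXG00000012031 83.4% and 84.2% in the same order, and upstream of slit1a 83.7% in cave and 87.4% in surface. A rise of efna1a RNA thus stood beside upstream values that differed by under 1 point. Upstream regions of 19 members were below 20% in both libraries, or 22.1%, where 23.1% of all regions were, and 27 were at 80% or above in both, or 31.4%, where 34.3% were. The weakly methylated ones included nrp1a, epha2a, slit2, ntn1a and plxnd1. Of the called members with RNA tested, 8 of 10 that were more methylated and 7 of 7 that were less methylated had an RNA difference below 0. Of all 84 tested members 69 did, or 82.1%. Across the 84 members the methylation difference and the log2 RNA difference had a Spearman correlation of 0.177 and a Pearson correlation of 0.140, given as a description over genes that share libraries.

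Gene bodies of the members differed little. None of 86 passed the limit of 10 points, where 3.15% of all gene bodies were more and 1.99% less methylated in cave. The median gene body was 81.2% methylated in cave and 80.7% in surface, and the differences of cave minus surface ran between -2.52 and 4.45 points. These are long genes, with a median span of 80.9 kb against 10.04 kb over all genes, and a median of 61508 calls in cave and 59703.5 in surface, against 8322 and 8176 over all genes. The median size of the difference was 1.22 points over the members and 2.13 over all genes.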

How the data were processed

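RNA was measured in 2 libraries and DNA methylation in 1 library per morph. The tools named in the submitters' processing notes are Trimmomatic, STAR, Subread, featureCounts, Bismark and DESeq2, with no version. The sources used here do not give a genome build, the strand setting of the counting or the width of the upstream region, and positions are on the scaffolds of the files. For RNA the authors deposited raw read counts of each gene. Even numbers made up 74.4% to 86.6% of the counts from 1 to 30, so read pairs may be counted more than once, and halved counts were an alternative. For methylation the authors deposited counts, per gene, of calls that were methylated and calls that were not, upstream and in the gene body. Percentages were computed from them. A deposited table of the authors' own comparison gives a mean signal, a log2 fold change with a standard error, a score that is their ratio, and a p-value before and after adjustment, per the file headers. Its sign is opposite to DESeq2's cave minus surface in 24539 of 24539 genes. A further 4 deposited columns of per-sample values were not used.

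RNA counts were tested with edgeR 4.0.16 (limma 3.58.1, R 4.3.3) after its default low-count filter, with TMM scaling and the quasi-likelihood test on all genes, 2 against 2 libraries, Benjamini-Hochberg adjustment and a threshold of 0.05. The standard error is the size of the log2 difference over the square root of its F statistic. Average log2 CPM used a prior count of 2. Alternatives were DESeq2 1.42.0, its size factors in edgeR, no filter, halved counts, a replicate block and each library left out. Regions that reached 20 calls in both libraries got Fisher's exact test, two-sided, which treats calls on 1 read as independent. Scripts were tested on simulated data. Other software was Python 3.11.15 with matplotlib 3.10.9, pandas 2.3.3, scipy 1.17.1 and numpy 2.4.6.

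Groups came from the sample labels. The members, gene lists and tests were chosen with earlier results of these data known. Genes named were those past the threshold, in each family the most abundant gene and the one with the largest difference among genes whose average log2 CPM reached 1, genes with known roles in eye or optic nerve guidance, members called for methylation, and pathway genes past the threshold or else the 4 with the smallest p. Other members named (ephb6, EPHA2, sema3gb, sema4ga, sema4gb, sema6b, sema7a, efna1b, efna2b, ntn4, ntn5, unc5 and unc5c) were chosen after their values were seen.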

Additional observations from a re-analysis of the deposited data

How the results depend on the processing

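Scaling by DESeq2's size factors, no low-count filter and halved counts left the counts of calls over all genes, members and pathway genes within 1.5 times and reversed none of 92 named genes. In the ganglion cell markers they gave 0, 2 and 1 higher, against 1. DESeq2 called 15 members lower, 6 pathway genes lower, and 1593 of all genes higher and 756 lower. The labels do not say that replicate numbers pair the libraries, and the deviations of same-numbered libraries correlated at -0.072 over all genes. With a replicate block 0 members were lower, and 17 were lower at an unadjusted p under 0.05, where 1184 of 22850 genes were. The edgeR adjusted p was then 0.103 for slit1a and 0.0923 for robo1 ENSAMXG00000012031. The block also gave 1 pathway gene higher, and 318 of all genes higher and 35 lower. With each library left out, members higher ran between 0 and 7 and lower between 0 and 36, the member median between -0.77 and -0.37, pathway genes higher between 0 and 10 and lower between 0 and 21, and all genes higher between 0 and 2989 and lower between 0 and 4203. The low ends came without either surface library. Upstream, a limit of 25 points left 0 members higher and 1 lower, where 2.16% and 1.75% of all regions were called. A floor of 100 calls left 10 of 82 members higher and 5 lower, where 11.5% and 8.25% of all regions were called. The cause of these shifts was not tested. A group of 2 libraries limits every RNA result, and 1 library per morph every methylation result.

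The log2 difference changed sign for 22 members when a library was left out, and under no other alternative. Its lowest and highest values were -0.11 and 0.33 for efna1b, -0.76 and 0.34 for efna3b, -0.10 and 0.40 for efnb2a, -0.73 and 0.062 for efnb2b, -0.56 and 1.23 for efnb3a, -1.04 and 0.032 for epha4l, -0.84 and 0.16 for ephb2b, -0.17 and 0.65 for ephb3, and -2.78 and 0.44 for ntn5. They were -0.90 and 0.24 for plxna1a, -0.86 and 0.12 for plxna2, -0.69 and 0.36 for plxna3, -0.49 and 0.23 for plxnb1a, and -0.46 and 0.63 for plxnb3. Among Slits, semaphorins and Unc5 they were -1.80 and 0.15 for sema3d, -1.44 and 0.11 for sema3e, -0.65 and 0.43 for sema3fa, -0.47 and 0.57 for sema4f, -0.61 and 0.0079 for sema6a, -0.79 and 0.35 for sema7a, -0.26 and 0.49 for slit2, and -1.48 and 0.078 for unc5a. None of these members passed the test with all 4 libraries.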
